A study of Homo sapiens with 3 samples.

Results

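The stretch of human chromosome 22q13 that holds WNT7B, CELSR1 and GRAMD4 was described by its ChIP-seq peaks for p63 and ZNF148. In ChIP-seq an antibody pulls down a protein with its DNA, which is sequenced and mapped. The cells were FaDu, an established line of pharyngeal squamous carcinoma cells, left untreated. The ChIP libraries were 1 with an antibody against ΔNp63α and 1 with an antibody against ZNF148, and the remaining sample of the 3, input DNA made without antibody, has no peak list used here. Per the labels, DNA from 3 independent assays went into the preparation, but each antibody has 1 peak list, so replicate error cannot be given and no p-value compares conditions. The lists do not give read depth.

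The members are the rows of both peak lists whose summit lies between 46250000 and 47100000 on chromosome 22 (hg19), a window of 850 kb. They number 198, of which 51 come from the 21922 of p63 and 147 from the 39669 of ZNF148. Rows that give separate summits of the same interval were merged, keeping the most significant summit, which left 49 p63 and 135 ZNF148 peaks. The window was chosen by its number of peaks in these same lists, so its density is a description and not a finding. The 3 genes were placed by the limits given with that choice, to the nearest 1 kb: WNT7B from 46.316 to 46.373 Mb, CELSR1 from 46.757 to 46.933 Mb and GRAMD4 from 47.016 to 47.076 Mb.

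ΔNp63α, a p63 isoform without the full N-terminus, is a p53-family transcription factor that maintains basal cells in squamous epithelia. ZNF148 is a transcription factor with zinc fingers and an affinity for GC-rich DNA. WNT7B is a secreted Wnt ligand, a signal that acts through Frizzled receptors and is made in epithelia including skin. CELSR1 is an atypical cadherin at cell contacts and a core protein of planar cell polarity, the alignment of epithelial cells and hair follicles within the tissue plane. GRAMD4 is a membrane protein with a GRAM domain, known from work on cell death. WNT7B and CELSR1 are transcribed toward lower coordinates and GRAMD4 toward higher ones. A peak shows where DNA was enriched and does not by itself show which gene, if any, it acts on.

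Both proteins had peaks in and between the 3 genes, in different proportions at each gene and with long stretches free of p63 peaks. WNT7B held 1 p63 peak and 18 ZNF148 peaks, whereas CELSR1 held 18 p63 and 25 ZNF148 peaks and GRAMD4 held 5 and 10. The ratio of ZNF148 to p63 peaks was thus 18 in WNT7B, 1.39 in CELSR1 and 2.0 in GRAMD4. The WNT7B ratio rests on 1 p63 peak. A further p63 summit 21 bp outside its limit, which is known only to 1 kb, was not counted and would lower the ratio. The strongest p63 peaks lay in GRAMD4 and the strongest ZNF148 peak lay before WNT7B. Over the window 15 of 49 p63 peaks overlapped ZNF148, or 30.6%, against 21.2% of all p63 peaks analysed, and 15 of 135 ZNF148 peaks overlapped p63, or 11.1%, against 12.1% of all ZNF148 peaks. These shares depend on the criterion. With summits within 100 bp in place of overlap, the p63 share was 14.3%, against 18.3% in the rest of the chromosomes. The ZNF148 share was then 5.19%, against 10.4%. Only 1 of the 49 p63 peaks had its summit within 25 bp of a ZNF148 summit, or 2.04%, against 13.5% of all p63 peaks. Within 50 bp it was 10.2% (4.44 to 21.8%), against 16.1% in the rest of the chromosomes. The rest of chromosome 22 was low too, at 3.04% within 25 bp and 5.14% within 50 bp, so few coincident summits are not particular to the window.

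**Figure D1:**
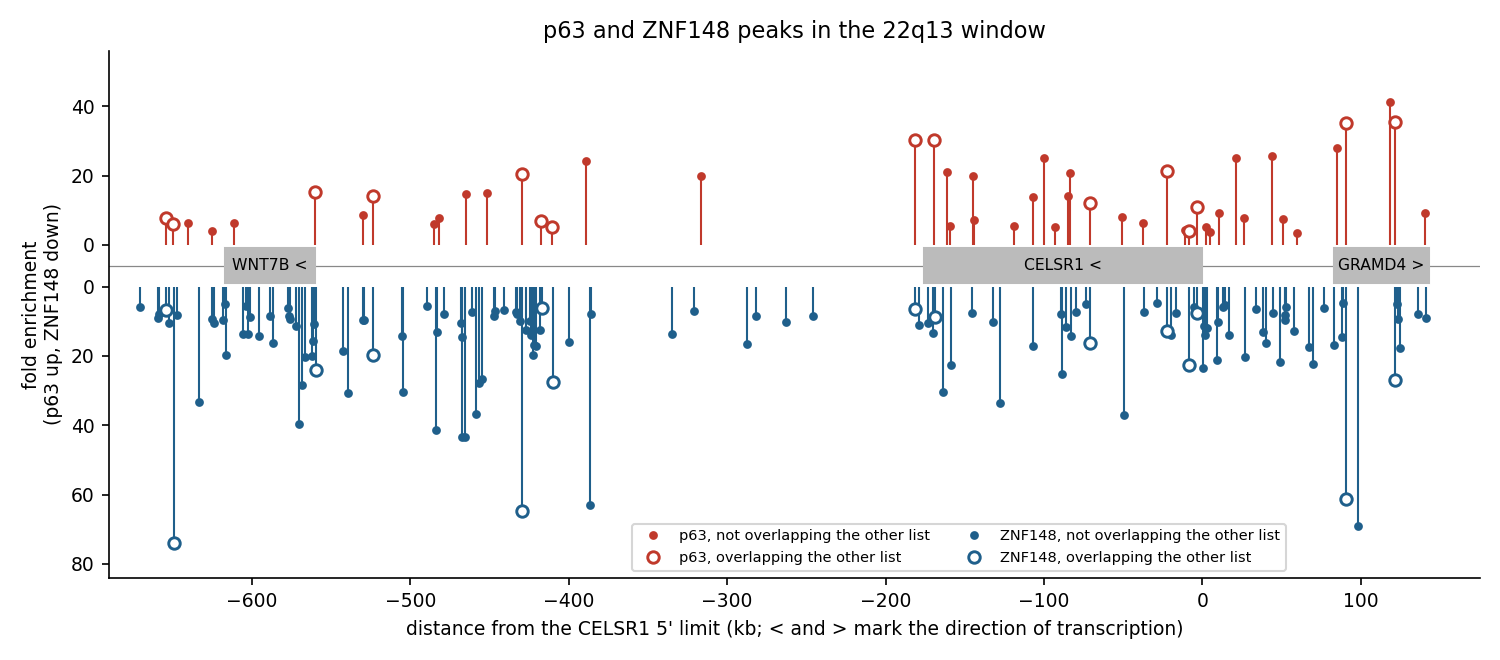
Each line is 1 peak, placed by its summit in kb from the 5′ limit of CELSR1, with p63 upward and ZNF148 downward and the line length giving fold enrichment; open circles mark peaks that overlap a peak of the other list, and grey bars are the genes. WNT7B has 1 p63 peak among 18 ZNF148 peaks, and few peaks of either list lie in the stretch before CELSR1.

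The window had 57.6 p63 peaks per Mb, against 7.28 per Mb in the rest of chromosomes 1 to 22 and X, a ratio of 7.91. It had 158.8 ZNF148 peaks per Mb, against 12.8 per Mb elsewhere, a ratio of 12.4. The rest of chromosome 22 was itself dense, at 12.5 p63 and 31.3 ZNF148 peaks per Mb, and relative to it the ratios were 4.62 and 5.08. Windows of the same width were taken every 50 kb, so neighbouring ones overlap, and windows with no peak of either list were left out. Among the 56705 that do not touch this one, the highest p63 count was 33, against 49 here. For ZNF148 the highest count elsewhere was 169, against 135 here. As many or more were found in 18 of these windows, which need not be separate regions. The window therefore leads by p63 and by the smaller of both counts, but not by ZNF148 alone.

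**Figure D2:**
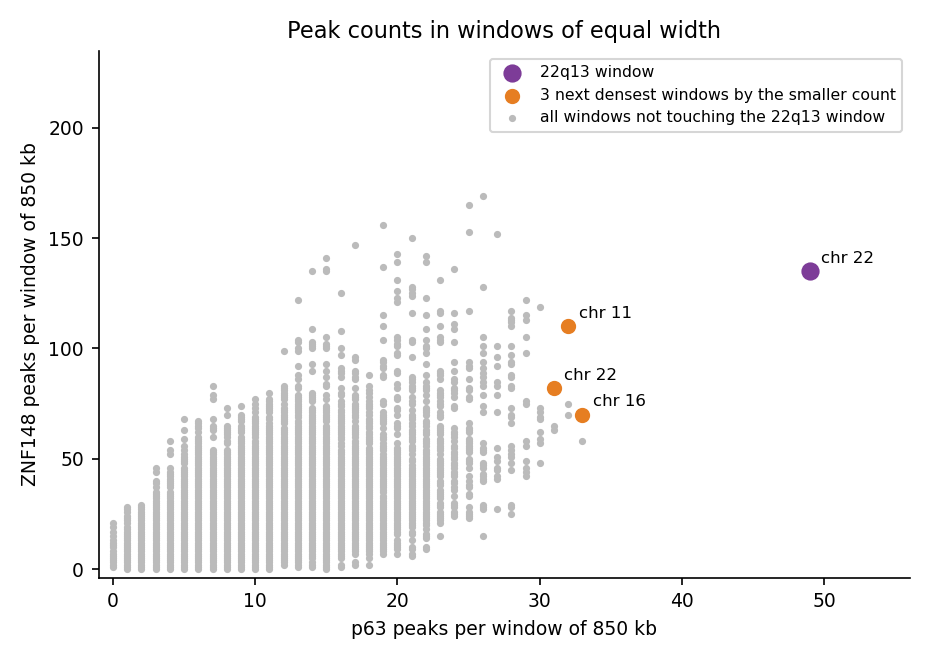
Each point gives the number of p63 peaks (horizontal axis) and ZNF148 peaks (vertical axis) in a window of 850 kb. The 22q13 window, with 49 and 135, lies to the right of every other window, while some windows elsewhere reach higher on the ZNF148 axis, up to 169.

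At the lower edge of the window, the first p63 peak inside (46278966 to 46279133) had a fold of 7.90 and the last one outside, 20.7 kb before the edge (46229171 to 46229393), a fold of 13.7. At the upper edge, the last p63 peak inside (47073045 to 47073230) had a fold of 9.35, and the next one outside, at 47146832 to 47147032, a fold of 7.97. For ZNF148 the first peak inside had a fold of 5.91 and the last one before the window 5.87. The last ZNF148 peak inside had a fold of 8.94, and the next one beyond the window (47127217 to 47127778) a fold of 45.1. Strong binding thus does not end at the upper edge for ZNF148.

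WNT7B was covered almost by ZNF148 alone. Its only p63 peak, at 46321898 to 46322067, was weak, with a fold enrichment of 6.47 and rank 18855 of 21520 in the p63 list, and the nearest ZNF148 summit was 5365 bp away. The 18 ZNF148 peaks ranged from a fold of 5.66 to 39.6 (median 13.7) and none overlapped a p63 peak; with 18 peaks, a count of 0 allows a share of up to 16.7%. The strongest lay at 46362739 to 46363109 (fold 39.6), 46364697 to 46365385 (fold 28.4) and 46371076 to 46371389 (fold 20.02). The ZNF148 peaks from 46327643 to 46372368 formed the longest run in the window without a p63 peak between them, 17 peaks over 44.7 kb.

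That run ended at the 5′ limit of WNT7B, where both proteins had a peak. The p63 peak at 46372894 to 46373153 had its summit 21 bp upstream of the limit, with a fold of 15.1 and a −log10 q of 55.98. The ZNF148 peak at 46373130 to 46373510 had its summit 267 bp upstream, with a fold of 24.1 and a −log10 q of 62.3. These peaks overlapped by their edges, with summits 246 bp apart. Because the limit is known only to 1 kb, the p63 peak may lie on either side of the true end of the gene; counted as inside, it would be the second p63 peak of WNT7B. Within 5 kb of the limit there was no other p63 peak, and ZNF148 had 4 peaks in all.

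Below WNT7B, between the start of the window and the gene, lay 4 p63 and 12 ZNF148 peaks. The p63 peaks there were weak, with folds of 3.91 to 7.90. One of them, at 46283417 to 46283630 (fold 5.95), overlapped the most significant ZNF148 peak of the window, at 46283546 to 46283952, which had a fold of 74.0, a −log10 q of 305 and rank 16 of 37883. Their summits were 227 bp apart. The other overlap there joined weak peaks of both proteins, the p63 peak at 46278966 to 46279133 (fold 7.90) and the ZNF148 peak at 46278911 to 46279067 (fold 6.85), with summits 29 bp apart.

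CELSR1 had the most p63 peaks of the 3 genes and the highest p63 density of the window, 10.2 per 100 kb, with 14.2 ZNF148 peaks per 100 kb. p63 folds ranged from 4.15 to 30.3 (median 11.5) and ZNF148 folds from 4.80 to 37.0 (median 11.6). The most significant p63 peaks lay at 46910553 to 46910931 (fold 21.3), 46832867 to 46833167 (fold 25.1) and 46849016 to 46849308 (fold 20.7). The most significant ZNF148 peaks lay elsewhere in the gene, at 46883281 to 46884233 (fold 37.0), 46804638 to 46805327 (fold 33.7) and 46768868 to 46769214 (fold 30.3). Of these 6 peaks only the first p63 peak overlapped the other list.

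Overlaps in CELSR1 numbered 5 of its 18 p63 peaks. The p63 peak at 46763609 to 46763895 (fold 30.3) met a ZNF148 peak at 46763698 to 46764051 (fold 8.66), 134 bp from summit to summit. At 46861729 to 46862011 the p63 fold was 12.1 and the ZNF148 fold 16.2, with summits 83 bp apart. At 46910553 to 46910931 the p63 fold was 21.3 and the ZNF148 fold 12.9, with summits 42 bp apart. At 46924128 to 46924360 the p63 fold was 4.15 and the ZNF148 fold 22.6, at 170 bp, while at 46929306 to 46929540 the folds were 10.9 and 7.64, at 42 bp.

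At the 5′ limit of CELSR1 the nearest summits were both upstream. ZNF148 had a peak at 46933379 to 46933733, 575 bp from the limit, with a fold of 23.6, and 5 peaks within 5 kb. The nearest p63 peak, at 46935306 to 46935472, was 2378 bp from the limit and weak, with a fold of 5.18 and rank 16416. It did not overlap a ZNF148 peak. Within 5 kb of this limit p63 had 3 peaks.

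Between CELSR1 and GRAMD4 lay 8 p63 and 23 ZNF148 peaks in 83 kb, 27.7 ZNF148 peaks per 100 kb. None of the 8 p63 peaks overlapped a ZNF148 peak, although 4 had a ZNF148 summit within 1 kb. A count of 0 of 8 allows a share of up to 37.5%, which is above the share in the window as a whole. The p63 folds there ranged from 3.51 to 25.5, and ZNF148 folds from 5.46 to 23.6, with none of these 23 in the top 10% of the ZNF148 list.

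GRAMD4 carried the strongest p63 binding of the window. Its 5 p63 peaks had folds of 9.35 to 41.2 (median 35.2), 4 of them were in the top 10% of the p63 list, and they supplied the 4 most significant p63 peaks of the 49. The first, at 47050905 to 47051415, had a fold of 41.2 and a −log10 q of 259 (rank 310), and the third, at 47017989 to 47018326, had a fold of 27.9 and a −log10 q of 236 (rank 544). Neither overlapped a ZNF148 peak. The fifth most significant p63 peak of the window lay outside the 3 genes, at 46543807 to 46544160, with a fold of 24.1.

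The other strong p63 peaks of GRAMD4 were joined by ZNF148. At 47023258 to 47023637 the p63 fold was 35.2 (rank 416), and the ZNF148 peak at 47023226 to 47023667 had a fold of 61.2 (rank 79) with its summit 32 bp away. This was the only site of the window where both peaks were among the 5 most significant of their list there. At 47054226 to 47054854 both intervals had a pair of summits. The stronger p63 summit (fold 35.4) was 305 bp from the stronger ZNF148 summit (fold 26.8) and 128 bp from the weaker one (fold 23.2). The weaker p63 summit (fold 6.26) was 26 bp from the stronger ZNF148 summit. ZNF148 had a further strong peak at 47030854 to 47031753 (fold 68.9, rank 139), with its nearest p63 summit 7904 bp away.

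At the 5′ limit of GRAMD4 the nearest peaks were ZNF148 at 47015556 to 47015867 (fold 16.9, 292 bp upstream) and p63 at 47017989 to 47018326 (fold 27.9, 2162 bp downstream), the only peak of each list within 5 kb. This limit is uncertain. WNT7B and CELSR1 are 56.8 and 176.4 kb long in the RefSeq gene table, close to the 57 and 176 kb of the limits used, but GRAMD4 is 107 kb long there, against 60 kb. In that table GRAMD4 also begins 38.1 kb after CELSR1, against 83 kb by the limits used, so longer transcripts start nearer to CELSR1. Extending the gene by the missing 47.0 kb on that side would add 3 p63 and 12 ZNF148 peaks to it.

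Of the 3 genes, 1 was matched in the RefSeq promoter table (GRCh38.p14), GRAMD4, and its promoter is shown for its base composition because ZNF148 binds GC-rich DNA. The 300 bases run from 250 before to 50 after the annotated start, 5′ to 3′ on the strand of the gene. Capitals mark matches to CCCCNCCC or its reverse complement GGGNGGGG, where N is any base.

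GRAMD4: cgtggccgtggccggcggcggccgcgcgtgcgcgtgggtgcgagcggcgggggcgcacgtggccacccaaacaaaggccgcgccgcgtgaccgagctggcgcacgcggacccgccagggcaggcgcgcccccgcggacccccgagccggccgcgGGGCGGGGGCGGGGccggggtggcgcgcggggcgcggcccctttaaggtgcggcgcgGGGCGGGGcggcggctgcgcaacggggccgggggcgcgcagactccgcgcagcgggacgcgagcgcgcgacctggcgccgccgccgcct

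The promoter was 85.3% G and C, a value reached by 0.242% of the 35116 promoters in the table, whose median was 58.7%. It held 3 matches to GGGNGGGG, of which a pair overlapped, and none to CCCCNCCC. Of all promoters, 37.7% held at least 1 match to either, and 8.37% held at least as many. The p53-family half-site, searched on both strands, was not among these letters and occurred in 6.63% of promoters. The start used in that table was not placed on hg19, so no peak is assigned to this sequence.

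Between WNT7B and CELSR1 lay 384 kb with 13 p63 and 47 ZNF148 peaks, unevenly spread. By the RefSeq annotation of GRCh38.p14, 24 genes lie between them, of which 7 are protein-coding and 4 are microRNA genes. In order from WNT7B, the named protein-coding ones are PPARA, CDPF1, PKDREJ, TTC38, GTSE1 and TRMU, with the let-7 host transcript MIRLET7BHG before PPARA. Positions of these genes on hg19 were not used here. The first 243.6 kb, up to the p63 summit at 46616558, held 12 p63 and 41 ZNF148 peaks, and the following 140.4 kb up to CELSR1 held 1 and 6. The longest gap between neighbouring p63 summits, 135.1 kb, lay there, as did the longest ZNF148 gap, 64.3 kb. The next longest gaps lay toward the end of the first part, 72.6 kb for p63 from 46543971 and 50.7 kb for ZNF148 from 46547340. That end was thus sparse too.

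In this stretch 6 of the 13 p63 peaks overlapped ZNF148, the peak at the WNT7B limit among them. The only close pair of the window was at 46503209 to 46503480, where p63 had a fold of 20.5 and the ZNF148 peak (46503118 to 46503889) a fold of 64.7, with summits 20 bp apart. At 46409416 to 46409852 the p63 and ZNF148 folds were 14.1 and 19.8, at 102 bp. Weak p63 peaks met ZNF148 at 46515709 to 46515883 (p63 fold 7.04, ZNF148 fold 6.14, 178 bp) and at 46522465 to 46522621 (p63 fold 5.05, ZNF148 fold 27.4, 482 bp). The ZNF148 interval of that pair had a second, weaker summit (fold 19.3) 74 bp from the p63 summit. The last pair, shortly before CELSR1 at 46751499 to 46751841, had a strong p63 fold of 30.3 and a weak ZNF148 fold of 6.37, at 77 bp. The ZNF148 peak at 46546439 to 46546834 was among the 5 most significant of the window (fold 62.9), and its nearest p63 summit was 2659 bp away.

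**Figure D3:**
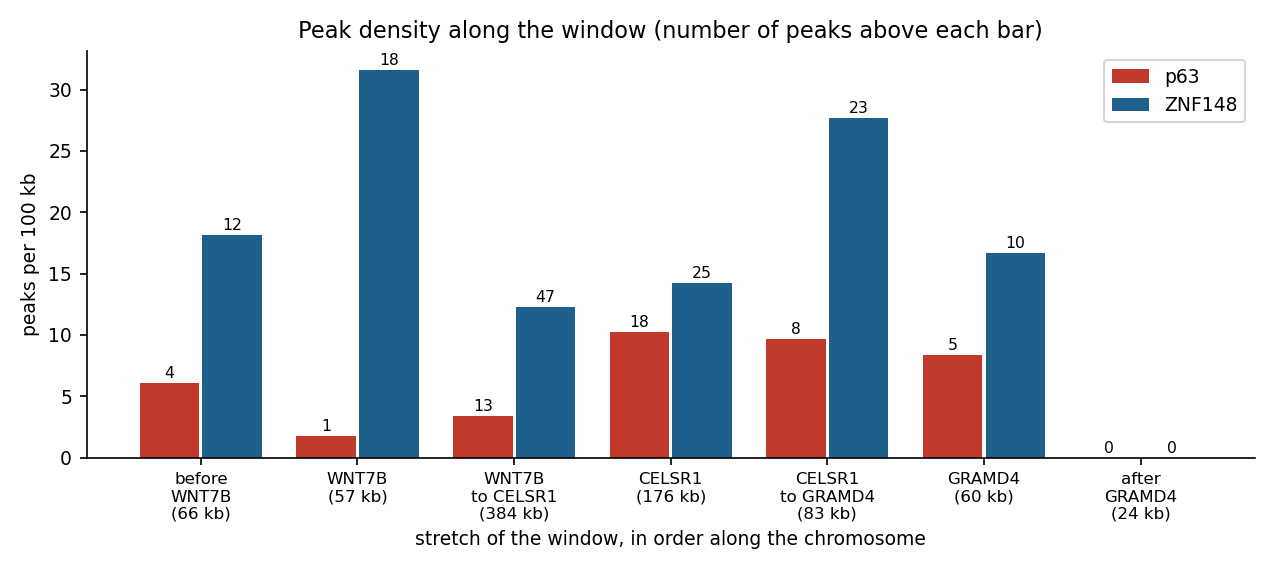
Bars give p63 and ZNF148 peaks per 100 kb in 7 consecutive stretches of the window, with the number of peaks above each bar. p63 is lowest within WNT7B among the stretches that hold peaks, at 1.75 per 100 kb, where ZNF148 is highest, at 31.6 per 100 kb. The lowest place of WNT7B for p63 depends on a summit 21 bp outside its limit, which is counted in the next stretch.

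Taking the genes as a whole, they cover 34.5% of the window and held 24 of the 49 p63 peaks (49.0%, 95% Wilson interval 35.6 to 62.5%) and 53 of the 135 ZNF148 peaks (39.3%, 31.4 to 47.7%). The share of length covered lay just under the p63 interval and inside the ZNF148 interval. No peak of either list lay in the last 24 kb, after GRAMD4.

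Spacing was tight for both proteins. The median gap between neighbouring p63 summits was 11.5 kb (quartiles 5.84 and 17.7 kb), against 68.9 kb in the rest of the chromosomes and 38.04 kb in the rest of chromosome 22. Neighbouring ZNF148 summits had a median gap of 3.04 kb (1.24 and 7.07 kb), against 24.9 and 11.1 kb. Short gaps follow from the density by which the window was chosen. In their order along the chromosome, 32 of the 49 p63 peaks had a ZNF148 peak as the next peak on both sides, and no run of p63 peaks was longer than 3. With 135 ZNF148 peaks to 49 of p63, such an order follows in part from the counts, and their part was not tested. The nearest ZNF148 summit was on the higher-coordinate side of 26 p63 peaks and on the lower side of 23.

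The shares of overlapping peaks did not stand apart from the whole lists, whereas those of coincident summits were low. With 1 bp of overlap as the minimum, the shared part of the p63 peaks, 30.6%, had a 95% Wilson interval of 19.5 to 44.5%, and that of the ZNF148 peaks, 11.1%, one of 6.85 to 17.5%. Both intervals include the share of the whole list. On the rest of chromosome 22 the shares were 13.1% (10.2 to 16.6%) for p63 and 5.32% (4.13 to 6.83%) for ZNF148, so both shares in the window lay above those of the same chromosome. With an overlap of 50% or more of both peaks, the p63 share was 18.4% (9.98 to 31.4%), against 18.0% in the rest of the chromosomes and 8.41% in the rest of chromosome 22. With summits within 100 bp it was 14.3% (7.10 to 26.7%), against 18.3% and 8.88%. The order of the window and the rest of the chromosomes thus turned round for p63, within the interval. For ZNF148 the share by 50% overlap was 6.67% (3.55 to 12.2%), against 10.2% in the rest of the chromosomes and 3.36% in the rest of chromosome 22. Within 100 bp it was 5.19% (2.53 to 10.3%), against 10.4% and 3.54%, so that interval ended just under the rest of the chromosomes. Intervals treat peaks as independent and cover counting error only. ZNF148 peaks covered 5.16% of the length of the window, against 0.349% of the rest of the chromosomes and 0.857% of the rest of chromosome 22. A higher coverage raises the share of p63 peaks that overlap by itself, and its part in these shares was not tested.

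The share of p63 peaks with a ZNF148 summit within 25 bp, 2.04%, had an interval of 0.361 to 10.7%. This does not reach the 13.5% of the whole list, but the rest of chromosome 22 was low too, with 13 of 428 p63 peaks or 3.04% (1.78 to 5.13%). With a limit of 50 bp the p63 share was 10.2% in the window and 5.14% in the rest of chromosome 22. Its interval of 4.44 to 21.8% includes the 16.1% of the rest of the chromosomes. For ZNF148 peaks the share within 25 bp was 0.741% (0.131 to 4.08%), against 7.70% in the rest of the chromosomes. Within 50 bp it was 3.70% (1.59 to 8.38%), against 9.14%, so both ZNF148 intervals ended below the rest. The rest of chromosome 22 had ZNF148 shares of 1.21% and 2.05%. The median distance between the summits of the 15 overlapping pairs was 102 bp, with a range of 20 to 482 bp, and 8 pairs were over 100 bp apart. These distances use the most significant summit of each interval, and the pair at 482 bp has a weaker ZNF148 summit 74 bp from that of p63. Intervals with several summits made up 8.15% of ZNF148 peaks here, against 3.56% in the rest of the chromosomes. For p63 they made up 4.08%, against 0.838%. Of the overlapping p63 peaks, 1 of 15 (6.67%) had close summits here, against 63.9% in the rest of the chromosomes. In the rest of chromosome 22 it was 13 of 56 (23.2%). The share in the window thus rests on 1 peak. Fold enrichments of the antibodies are not on a common scale, so the folds of a pair are given side by side only.

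Near neighbours short of coincidence were frequent. A ZNF148 summit lay within 1 kb of 27 of the 49 p63 peaks, or 55.1% (41.3 to 68.2%), against 26.3% in the rest of the chromosomes and 23.8% (20.04 to 28.1%) in the rest of chromosome 22. Distances over 100 and up to 500 bp were found for 26.5% of p63 peaks here, against 5.01% in the rest, and distances over 500 and up to 1000 bp for 14.3%, against 3.03%. The median distance from a p63 summit to the nearest ZNF148 summit was 826 bp, against 11808 bp in the rest of the chromosomes and 6716 bp in the rest of chromosome 22. A higher ZNF148 density shortens these distances by itself, and its part in them was not tested.

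**Figure D4:**
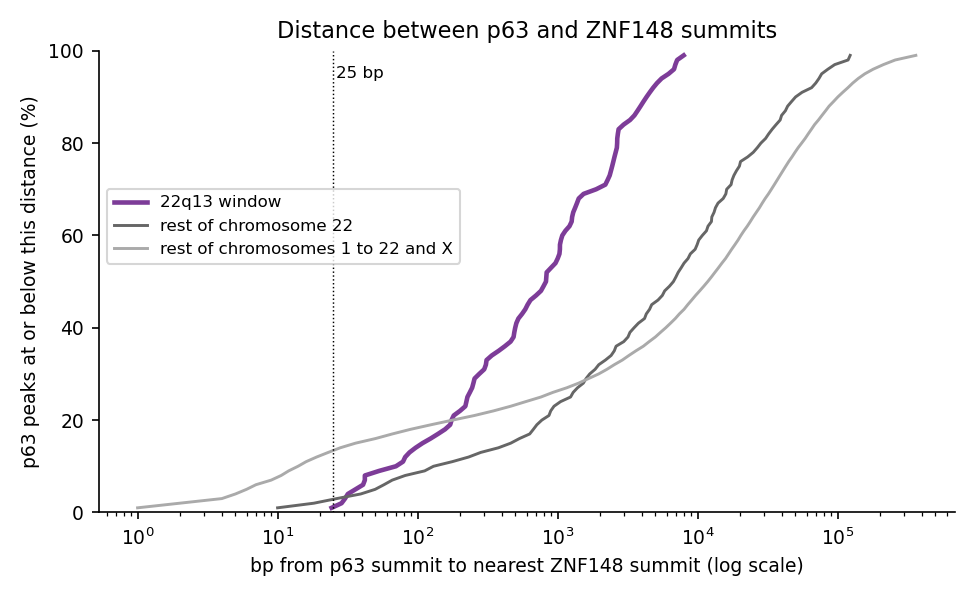
Curves give the percentage of p63 peaks (vertical axis) whose nearest ZNF148 summit is at or below a distance in bp (horizontal log axis), for the window, the rest of chromosome 22 and the rest of the chromosomes. At 25 bp the window and the rest of chromosome 22 are low (2.04% and 3.04%, against 13.5% in the rest of the chromosomes), while at 1 kb the window is highest, at 55.1%.

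Overlap in the window was more frequent among stronger p63 peaks, in small numbers and with no test. Of the 24 p63 peaks with a fold above the window's median, 10 overlapped ZNF148 (41.7%), and of the other 25, 5 did (20%). Overlapping p63 peaks had a median fold of 14.1, against 8.37 for the others. For ZNF148 the medians were 19.8 for overlapping peaks and 11.5 for the others. Both lists show the same order in the rest of the chromosomes, with medians of 26.4 and 11.8 for p63 and 23.8 and 9.26 for ZNF148.

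The strength of the peaks was not uniform between measures. The median p63 fold was 9.35 (quartiles 6.23 and 20.7), against 13.2 (8.40 and 24.5) in the rest of the chromosomes, yet the median −log10 q was 38.9, against 32.8. For ZNF148 the median fold was 12.0 (8.01 and 19.8), against 9.82 (7.21 and 16.6), and the median −log10 q was 22.5, against 14.0. In the window 9 of 49 p63 peaks (18.4%) and 21 of 135 ZNF148 peaks (15.6%) belonged to the top 10% of their list by q. Peaks of low fold were also more frequent for p63, with 5 of 49 under a fold of 5, or 10.2% (4.44 to 21.8%). This compares with 2.05% (1.87 to 2.25%) in the rest of the chromosomes. In the rest of chromosome 22 it was 3.74% (2.31 to 5.99%), an interval that overlaps that of the window. ZNF148 had no such excess. Of its peaks, 2 of 135 were under a fold of 5, or 1.48%, against 1.80% in the rest of the chromosomes. Under a fold of 10 were 40.7% (32.8 to 49.2%), against 50.4%.

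At the same fold, peaks of the window were more significant than those elsewhere. p63 peaks with folds of 10 to 20 had a median −log10 p of 69.1 in the window (10 peaks, 47.8 to 98.6), against 37.0 in the rest of the chromosomes (quartiles 28.5 and 48.9) and 40.9 in the rest of chromosome 22. With folds of 20 to 40 the median was 174.9 (13 peaks), against 97.0 in the rest. For ZNF148 the medians were 32.3 against 24.0 at folds of 10 to 20, and 76.2 against 62.6 at folds of 20 to 40. In narrower classes of fold, 36 of 46 p63 peaks and 84 of 132 ZNF148 peaks exceeded the upper quartile of the rest of their list. In a count-based test, a smaller p at the same ratio goes with more reads in both the peak and its background. Copy number and local background were not measured here, and their part in the density of the window was not tested.

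**Figure D5:**
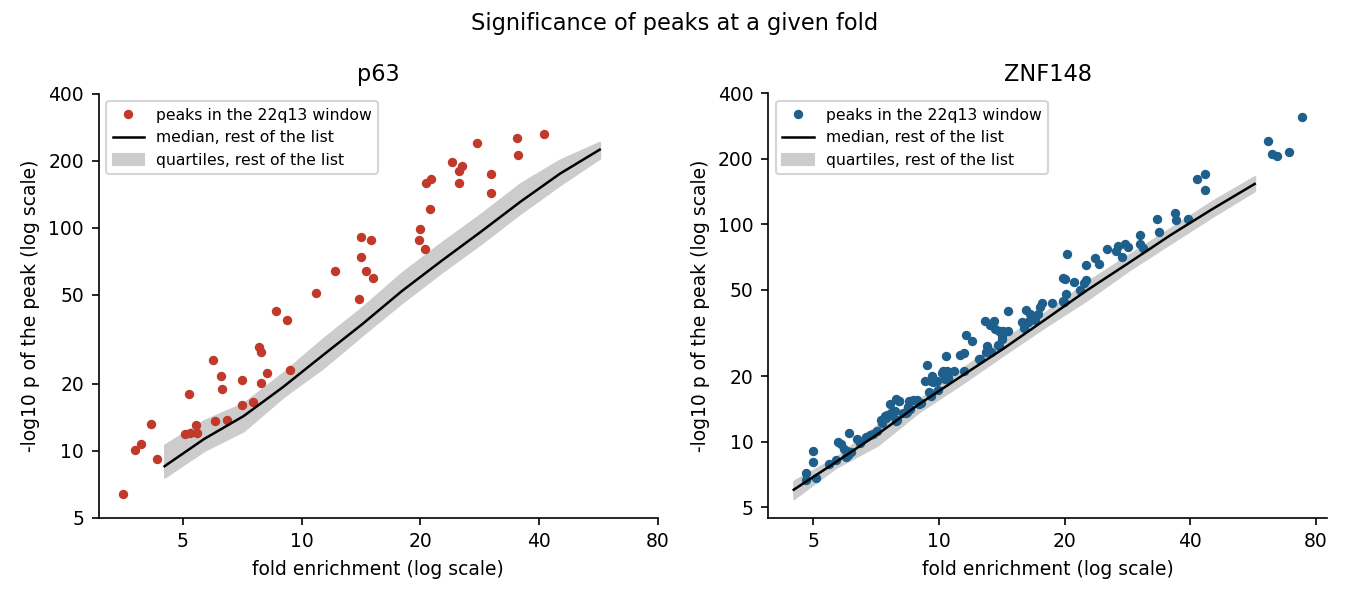
Points are peaks of the window, by fold enrichment (horizontal log axis) and −log10 p (vertical log axis), for p63 and ZNF148; the black line and grey band are the median and quartiles of the rest of each list. Of the p63 points within the range of the band, 36 of 46 lie above its upper quartile, and of the ZNF148 points 84 of 132.

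The 3 windows next in density by the smaller count were set beside it. The one on chromosome 16 (84.9 to 85.75 Mb) held 33 p63 and 70 ZNF148 peaks. The one on chromosome 11 (69.2 to 70.05 Mb) held 32 and 110, and another on chromosome 22 (37.9 to 38.75 Mb) held 31 and 82. Their p63 peaks overlapped ZNF148 in 4 of 33, 5 of 32 and 7 of 31 cases, shares of 12.1%, 15.6% and 22.6%, against 30.6% in the 22q13 window, and their Wilson intervals overlap that of the window. Close summits numbered 2, 1 and 0 there, against 1 here. A ZNF148 summit lay within 1 kb of 15.15%, 31.25% and 38.71% of their p63 peaks, against 55.1% here. The intervals for chromosomes 11 and 22 overlap that of the 22q13 window, and the one for chromosome 16 (6.65 to 30.9%) lies below it. The ratio of ZNF148 to p63 peaks was 2.76 in the 22q13 window and 2.12, 3.44 and 2.65 in the others. The window on chromosome 11 had a still higher median −log10 p for p63 peaks with folds of 10 to 20, at 134.4, while those on chromosomes 16 and 22 had 40.9 and 45.5. In the windows on chromosomes 16, 11 and 22, 1 of 33, 8 of 32 and 1 of 31 p63 peaks had folds under 5. The count was 5 of 49 in the 22q13 window, so frequent low p63 folds were not confined to it. The chromosome 11 window also had a lower median p63 fold, 7.17 against 9.35, with a higher median −log10 q, 48.9 against 38.9.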

How the data were processed

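ChIP-seq peak lists of FaDu cells were used, 1 for p63 and 1 for ZNF148. The submitters' processing notes name hg19 and the tools MACS2 2.2.6, Bowtie2 2.3.4.3, SAMtools 1.7, MultiQC 1.12 and FastQC 0.11.9. Settings, control library and filters are not given in the sources used here. For each peak the authors deposited a fold enrichment, which is a ratio over background, and a −log10 p and −log10 q. No q in the p63 list was weaker than a deposited −log10 value of 3.01, nor in the ZNF148 list than 3.02. The deposited offset of the summit from the peak start is in bp.

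Chromosomes 1 to 22 and X were used. Positions are 1-based on hg19. Ranks are by q value. Sharing means an overlap of at least 1 bp and close summits lie within 25 bp. Densities use the span from the first to the last peak of each chromosome. With 1 library per antibody no test was run, and shares carry 95% Wilson intervals. Overlap and distance code was tested on simulated data. Named peaks are the 5 most significant per list in the window, the 3 most significant per gene, all overlapping pairs and the peaks nearest to 5′ limits; other peaks and stretches were singled out after their values were seen. The members and lists were chosen with earlier results of these data known. The direction of WNT7B and CELSR1 is background knowledge. Counts near a planned list of Wnt and planar cell polarity genes need an hg19 annotation and were not made. Alternatives concerned peak limits, window and gene limits, and overlap criteria. Python 3.11.15, numpy 2.4.6, pandas 2.3.3 and scipy 1.17.1 were used.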

Additional observations from a re-analysis of the deposited data

How the results depend on the processing

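Of 73 values recomputed for 13 results, 58 stayed within the interval of the reported value (counts and density ratios within 1.5 times) and 15 went beyond. With peaks limited to a fold of at least 10, 24 p63 and 80 ZNF148 peaks were left, with median folds of 20.9 and 16.9 and median gaps of 22.2 and 6.19 kb, all set by the limit itself; the density ratios were then 5.95 and 14.8. Against the rest of chromosome 22 the density ratios were 4.62 for p63 and 5.08 for ZNF148. With an overlap of 50% or more of each peak in a pair, 18.4% of p63 and 6.67% of ZNF148 peaks were shared. In the rest of the chromosomes these shares were 18.0% and 10.2%. With summits within 100 bp 14.3% of p63 and 5.19% of ZNF148 peaks were shared, the latter against 10.4% in the rest of the chromosomes. On that last criterion the window's p63 share lay below the 18.3% of the rest of the chromosomes, where by overlap it lay above. Within 10 bp of a ZNF148 summit lay 0% of p63 peaks, against 8.0% in the rest, and within 50 bp 10.2%, against 16.1%. The share of ZNF148 peaks inside the genes was 50.4% with gene limits widened by 10 kb and 48.1% with GRAMD4 extended to its RefSeq length. The extension was chosen after the data were seen. Both changes also raise the part of the window that the genes cover, 34.5% by the limits used, so a higher share follows in part from added length. No paired analysis was possible because each antibody has 1 library. Read depth is unknown, so weaker sites outside both lists are not described.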
